A study of Homo sapiens with 5 samples.

Results

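HT1376 cells, an established human bladder carcinoma line, carried many stretches of H3K27me3 that lay under no EZH2 domain and were no longer called after EZH2 inhibition. Such stretches are described here by width, position, genes and sequence. Overlapping intervals were merged within each deposited list, and a stretch was taken when its H3K27me3 domain in DMSO cells was under 60 kb and overlapped no EZH2 domain in DMSO, no EZH2 domain in CPI-0209 and no H3K27me3 domain in CPI-0209. Of 21641 H3K27me3 domains in DMSO cells, 9320 (43.1%) met the rule. The number was 5779 when domains under 5 kb apart were joined in every list, and 6122 when no other list's domain could lie within 10 kb. They are called lost, EZH2-free domains below, where lost means only that no H3K27me3 domain was called there in CPI-0209. The domains were chosen by the measured H3K27me3 and EZH2 calls, so their number, their loss and their lack of EZH2 are a description and not a finding.

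The enzyme EZH2 places methyl groups on lysine 27 of histone H3 as part of Polycomb repressive complex 2 (PRC2). The trimethylated form, H3K27me3, is found over silenced genes, and in mammals PRC2 is held most strongly at CpG-rich promoters of developmental genes. From such sites the mark can also extend over flanking chromatin in broad, weaker stretches. CPI-0209 is a small-molecule inhibitor of EZH2's methyltransferase activity, so it acts on the mark and need not remove the enzyme from chromatin.

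The groups used were HT1376 cells kept for 8 days in DMSO, the vehicle, or in 250 nM CPI-0209, each profiled by chromatin immunoprecipitation and sequencing (ChIP-seq) with an antibody against EZH2 and with one against H3K27me3. Each of the 4 combinations had 1 library, all from the same established line, and an input library was not used here. The lists hold positions only, in hg38 coordinates, so depth is unknown, a missing call does not show a missing mark, and no test between DMSO and CPI-0209 was possible. Over all widths, 12756 of the 21641 DMSO domains (58.9%) had no H3K27me3 domain in CPI-0209. The 4 lists held 21641 (H3K27me3, DMSO), 15838 (H3K27me3, CPI-0209), 18639 (EZH2, DMSO) and 27406 (EZH2, CPI-0209) domains. For comparison, the remaining DMSO domains under 60 kb were put into 4 classes: 2347 lost with EZH2 called in CPI-0209 only, 1084 lost with EZH2 in DMSO, 1857 retained without EZH2 in DMSO and 6357 retained with EZH2 in DMSO. Brackets give exact (Clopper-Pearson) 95% binomial intervals, which cover counting error only, since neighbouring domains and genes are not independent and cultures were not repeated.

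The few promoters found inside lost, EZH2-free domains were poor in CpG, the dinucleotide that marks CpG-island promoters. The sequences that follow are the 250 bases upstream of a start site, 5′ to 3′ on the strand of the gene, from RefSeq on GRCh38.p14, with every CpG in capitals. They are shown because they span the range of CpG content among the genes named in this text. CXCL13, a B-cell attracting chemokine (chr4:77605570-77605819, plus strand), KRT84, a hair keratin (chr12:52385653-52385902, minus strand), and IFNA5, an interferon alpha (chr9:21305314-21305563, minus strand), had the fewest. IFNA5 shares its count with other named genes, among them OR4D9, RNASE6, RTP3 and IFNL3, and was taken by alphabetical order. CARTPT, a neuropeptide precursor (chr5:71719025-71719274, plus strand), ZSCAN23, a zinc finger gene (chr6:28443492-28443741, minus strand), and BOD1L2 (chr18:57146837-57147086, plus strand) had the most. The start sites used for CXCL13 and KRT84 lie inside their gene records. The KRT84 domain met an EZH2 domain of CPI-0209 end to end, without overlap. PAX3, a developmental transcription factor (chr2:222298999-222299248, minus strand), is shown beside them as a start site in an H3K27me3 domain that was retained and under EZH2. It was picked afterwards as a window with the median CpG count of that class.
CXCL13: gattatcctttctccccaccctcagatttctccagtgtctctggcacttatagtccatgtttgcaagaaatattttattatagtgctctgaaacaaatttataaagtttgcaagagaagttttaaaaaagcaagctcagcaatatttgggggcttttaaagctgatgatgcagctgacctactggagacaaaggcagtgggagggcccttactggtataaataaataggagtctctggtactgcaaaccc
KRT84: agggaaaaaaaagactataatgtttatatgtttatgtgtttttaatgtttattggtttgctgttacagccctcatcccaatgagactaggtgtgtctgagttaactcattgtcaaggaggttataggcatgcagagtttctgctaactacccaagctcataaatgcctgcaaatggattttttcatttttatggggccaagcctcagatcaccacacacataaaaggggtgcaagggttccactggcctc
IFNA5: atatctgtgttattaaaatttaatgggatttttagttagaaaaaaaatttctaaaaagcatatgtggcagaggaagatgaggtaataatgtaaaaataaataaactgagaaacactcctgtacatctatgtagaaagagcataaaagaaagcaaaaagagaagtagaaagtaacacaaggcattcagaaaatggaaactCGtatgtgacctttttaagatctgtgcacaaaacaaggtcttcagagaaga
CARTPT: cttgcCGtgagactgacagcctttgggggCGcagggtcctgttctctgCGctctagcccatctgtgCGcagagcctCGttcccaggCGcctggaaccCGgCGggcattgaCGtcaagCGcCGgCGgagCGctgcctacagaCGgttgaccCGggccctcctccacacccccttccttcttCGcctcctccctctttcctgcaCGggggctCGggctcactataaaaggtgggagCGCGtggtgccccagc
ZSCAN23: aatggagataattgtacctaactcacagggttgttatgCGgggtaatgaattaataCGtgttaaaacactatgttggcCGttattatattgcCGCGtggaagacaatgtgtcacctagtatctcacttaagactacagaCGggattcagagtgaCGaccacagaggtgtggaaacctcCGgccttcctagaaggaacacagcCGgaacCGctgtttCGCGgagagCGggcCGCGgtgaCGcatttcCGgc
BOD1L2: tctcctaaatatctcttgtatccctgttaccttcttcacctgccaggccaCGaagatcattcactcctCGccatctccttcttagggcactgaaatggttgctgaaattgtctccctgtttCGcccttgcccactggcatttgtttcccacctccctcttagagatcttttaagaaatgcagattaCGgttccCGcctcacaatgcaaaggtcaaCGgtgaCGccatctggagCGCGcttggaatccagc
PAX3: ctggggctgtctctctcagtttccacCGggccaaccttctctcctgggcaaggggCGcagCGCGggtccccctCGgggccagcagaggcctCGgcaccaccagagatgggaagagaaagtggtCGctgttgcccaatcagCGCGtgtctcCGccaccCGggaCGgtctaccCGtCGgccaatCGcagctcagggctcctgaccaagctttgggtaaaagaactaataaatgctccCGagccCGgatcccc

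CXCL13 and KRT84 had 0 CpG in these bases and IFNA5 had 1. BOD1L2 had 9, ZSCAN23 had 17 and CARTPT had 20, while PAX3 had 17. The upper end of CpG content among the named lost, EZH2-free promoters therefore reached the level of the PAX3 window, and the lower end held almost none.

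All RefSeq promoter windows were then compared, each running from 250 bases before to 50 bases after a start. There were 22132 windows for 15812 protein-coding genes, some genes having several, and promoters on chromosome 8 were not analysed here. Only 352 windows (1.59% of all) lay wholly inside a lost, EZH2-free domain. They belonged to 304 genes (1.92% of genes with a window) and sat in 304 domains. These windows held a median of 4 CpG (quartiles 2 to 7) and a median of 49.3% G and C. Windows inside domains that were retained with EZH2 numbered 2837 and held a median of 21 CpG (10 to 33) and 65.3% G and C. Windows outside every DMSO domain, 17385 in number, also held a median of 21 CpG (7 to 31). The rule reads no sequence, but it uses EZH2 calls, and PRC2 is known to favour CpG-rich sites, so CpG content and the rule are not unrelated.

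The share of windows with at least 15 CpG gave the same order. It was 7.10% (4.65 to 10.3; 25 of 352) in the lost, EZH2-free domains and 64.1% (62.3 to 65.9) in the domains retained with EZH2. It was 62.3% over all windows. With a minimum of 10 CpG the first 2 shares were 15.9% and 75.1%, and with a minimum of 20 they were 3.69% and 53.4%. In the other classes it was 47.5% (40.9 to 54.0) where EZH2 was called in CPI-0209 only, 58.0% (50.6 to 65.1) where a lost domain had EZH2 in DMSO and 45.4% (39.8 to 51.1) where a retained domain had none in DMSO. Each of these intervals lay above that of the lost, EZH2-free windows. The ratio of observed to expected CpG, which corrects for base composition, had a median of 0.244 in the lost, EZH2-free windows against 0.711 in those retained with EZH2 and 0.738 over all windows.

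**Figure D1:**
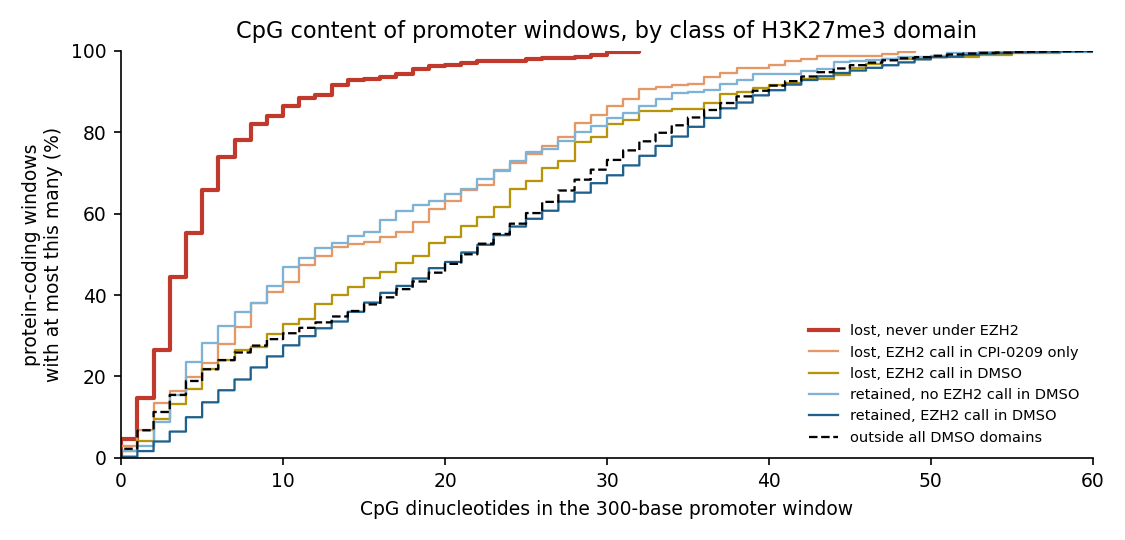
Cumulative percent of protein-coding promoter windows (y axis) with at most the number of CpG dinucleotides on the x axis, for windows wholly inside each class of DMSO H3K27me3 domain under 60 kb and, dashed, outside all DMSO domains. The curve of the lost, EZH2-free domains (red, median 4) rises to the left of every other class, whose medians run from 12 to 21.

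The lost, EZH2-free windows had the lowest share in each of 4 bins of domain width. In domains under 5 kb the share with at least 15 CpG was 14.1% (7.74 to 22.95) of 92 windows in the lost, EZH2-free class and 76.6% (68.7 to 83.4) of 137 windows in the class retained with EZH2. The shares were 3.61% and 74.4% at 5 to 10 kb and 7.06% and 66.0% at 10 to 20 kb. At 20 to 60 kb, 0 of 9 windows of the lost, EZH2-free class reached 15 CpG, which allows a share of up to 33.6%. For starts of long noncoding RNAs, at least 15 CpG were present in 2.67% (1.23 to 5.01) of 337 windows in lost, EZH2-free domains, 39.4% of those in domains retained with EZH2 and 26.1% of all 12829.

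A pair of short core-promoter motifs was searched on both strands of each 300-base window. TATAAA, the TATA box core, was found in 15.6% (11.99 to 19.8) of protein-coding windows inside lost, EZH2-free domains, in 8.49% (7.49 to 9.58) of those in domains retained with EZH2 and in 9.46% of all windows. GGGCGG, the GC box core, was found in 16.5% (12.8 to 20.8), 61.1% (59.3 to 62.9) and 56.3% in the same order. In windows of long noncoding RNAs the TATAAA shares were 14.5% (10.95 to 18.8) in lost, EZH2-free domains, 6.17% in domains retained with EZH2 and 15.1% over all, so the first did not stand above the share of all windows. The motifs share no bases and cannot overlap each other. GGGCGG holds a CpG and TATAAA only A and T, so these shares are not independent of the CpG and base content given above. A difference beyond that content was not tested. Among the sequences printed above, TATAAA occurs in the windows of CXCL13, KRT84 and CARTPT, and GGGCGG in 0 of the 7. A match is a string of letters and was not taken as a bound site.

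Gene starts were rare in the lost, EZH2-free domains altogether. On the chromosomes with promoter windows, 318 of 8881 such domains (3.58%, 3.20 to 3.99) held a protein-coding start, against 33.5% (32.4 to 34.7) of the domains retained with EZH2. Per length, which allows for the difference in width, there were 5.67 windows per Mb in the lost, EZH2-free domains, 7.67 per Mb over the genome between the outermost genes of each chromosome and 22.6 per Mb in domains retained with EZH2. The lost, EZH2-free domains were thus below the genome-wide density of starts and the EZH2-bound retained domains well above it. A further 2979 (33.5%, 32.6 to 34.5) lay wholly inside a protein-coding record without holding its start, against 17.1% of the domains retained with EZH2. Another 339 (3.82%) crossed the other end of a record. A narrower domain fits inside a record more easily, and the share lying inside a record was not taken within bins of width.

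The lost, EZH2-free domains were narrow, with a median width of 5.8 kb (quartiles 4 and 8.8 kb) and 95% of them at most 15.4 kb. Domains retained with EZH2 had a median of 17 kb (9.8 to 28 kb). Although they were 43.1% of all DMSO domains, the lost, EZH2-free ones covered 65.1 Mb, which was 20.7% of the H3K27me3 length. The other lost classes had medians of 7.4 kb (EZH2 in CPI-0209 only) and 8.8 kb (EZH2 in DMSO). Width is set by the caller in steps of 200 bp. It enters the rule through the upper limit and through the demand for no overlap, which a wide domain meets less easily. Lost, EZH2-free domains were 71.0% of DMSO domains at 2 to 5 kb and 5.30% at 20 to 60 kb. Their narrowness is therefore partly built into the rule, and these values are given without a test.

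The upper limit itself decided little. Of 676 DMSO domains of 60 kb or more, 0 met the other terms, and the widest lost, EZH2-free domain measured 56.6 kb. That domain, at chr10:14345001-14401600, touched only MIR4293, a microRNA gene, and lay 12.6 kb from the nearest EZH2 domain in CPI-0209. The next was 54.4 kb at chr20:3316601-3371000 over DNAAF9, a gene named for the assembly of ciliary dynein, and 15 kb from the nearest EZH2 domain in DMSO. The others of the 5 widest were 44.2 kb at chr9:107097601-107141800, 43.2 kb at chr11:76394601-76437800 over GVQW3 and EMSY-DT, and 40.6 kb at chr5:34559601-34600200. At the overlap limit, 34 lost, EZH2-free domains touched a domain of another list end to end, and 34 DMSO domains were kept out by an overlap of 200 bp or less.

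Some stretches of the DMSO list lay under 2 overlapping intervals, and no source used here says what the second interval stands for. Such stretches made up 22.4% of the length of lost, EZH2-free domains, 39.2% where EZH2 was called in CPI-0209 only, 51.6% in lost domains with EZH2 in DMSO, 56.6% in retained domains without it and 76.2% in domains retained with EZH2. At least part of a doubly covered stretch was present in 30.3% (29.3 to 31.2) of lost, EZH2-free domains and in 98.3% of those retained with EZH2. The lost, EZH2-free domains were thus mostly covered by 1 interval. The lists carry no signal value to set beside this.

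Most lost, EZH2-free domains lay well away from EZH2 domains. The nearest EZH2 domain in DMSO was a median of 37.8 kb away (quartiles 14 and 91.8 kb). The nearest EZH2 domain in CPI-0209, the longer list, was 21.3 kb away (8 to 53.2 kb), and the nearest H3K27me3 domain in CPI-0209 was 46.1 kb away (16 to 147.2 kb). A distance of at least 10 kb from all 3 lists was found for 6122 domains (65.7%) and of at least 100 kb for 950 (10.2%). At the near end, 248 lay under 1 kb from a domain of another list. Distance 0 by overlap was excluded by the rule, so the distances are a description. Distances from other sites in the genome were not taken, so the values do not show whether these domains lay unusually far from EZH2.

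**Figure D2:**
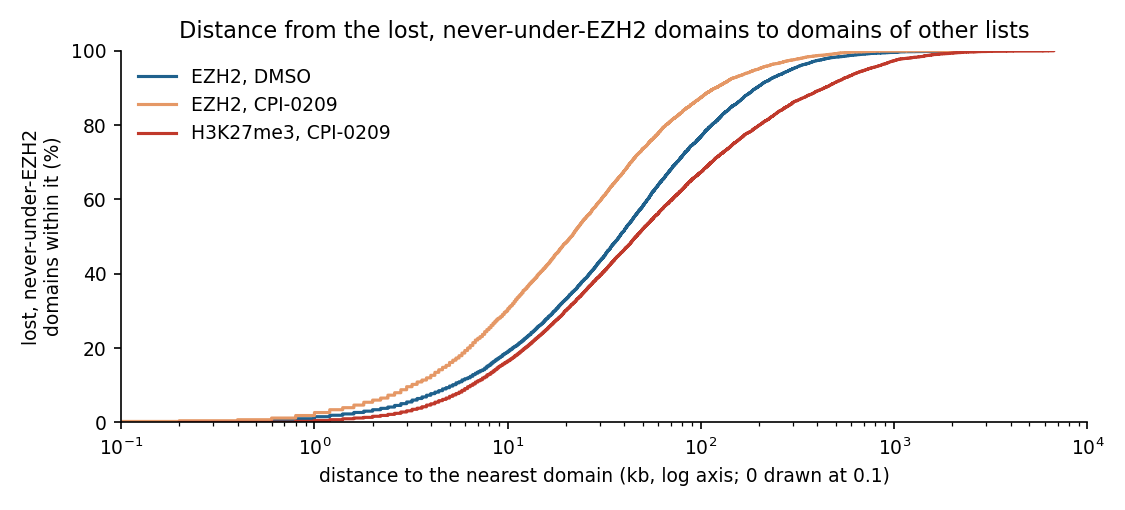
Cumulative percent of the 9320 lost, EZH2-free domains (y axis) whose nearest domain in each of the other lists lies within the distance on the x axis (kb, log scale, with distance 0 drawn at 0.1). The medians are 21.3 kb to EZH2 in CPI-0209, 37.8 kb to EZH2 in DMSO and 46.1 kb to H3K27me3 in CPI-0209.

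The lost, EZH2-free domains often lay outside genes. Of 9320, 3523 (37.8%, 36.8 to 38.8) overlapped no gene record of any kind, against 14.8% (13.9 to 15.7) of domains retained with EZH2. The 3 other classes were at 32.0% (lost, EZH2 in CPI-0209 only), 29.4% (lost, EZH2 in DMSO) and 27.2% (retained, no EZH2 in DMSO). Counting protein-coding records alone, 59.4% of the lost, EZH2-free domains were outside genes. Protein-coding records were overlapped by 3784 (40.6%, 39.6 to 41.6) against 65.6% of the domains retained with EZH2. Records of long noncoding RNA without a protein-coding gene were overlapped by 1439 (15.4%), pseudogenes alone by 526 (5.64%) and other records alone by 48. Domains outside genes lay a median of 11.6 kb from the nearest record of any kind and 30.0 kb from the nearest protein-coding record.

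A wider domain meets a gene more easily, so the share was also taken within bins of width. At 2 to 5 kb, 41.2% (39.5 to 42.9) of 3227 lost, EZH2-free domains met no gene record, against 16.2% (12.3 to 20.8) of 308 domains retained with EZH2. At 5 to 10 kb the shares were 37.9% (36.4 to 39.4) and 14.2% (12.4 to 16.3), at 10 to 20 kb 30.8% and 18.2%, and at 20 to 60 kb 27.1% and 12.1%. Under 2 kb the intervals overlapped, at 43.1% (37.1 to 49.4) of 262 and 38.9% (17.3 to 64.3) of 18. Between 10 and 20 kb the lost domains with EZH2 stood at 33.2% (28.4 to 38.3), so the lost, EZH2-free ones were not the highest class at every width.

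**Figure D3:**
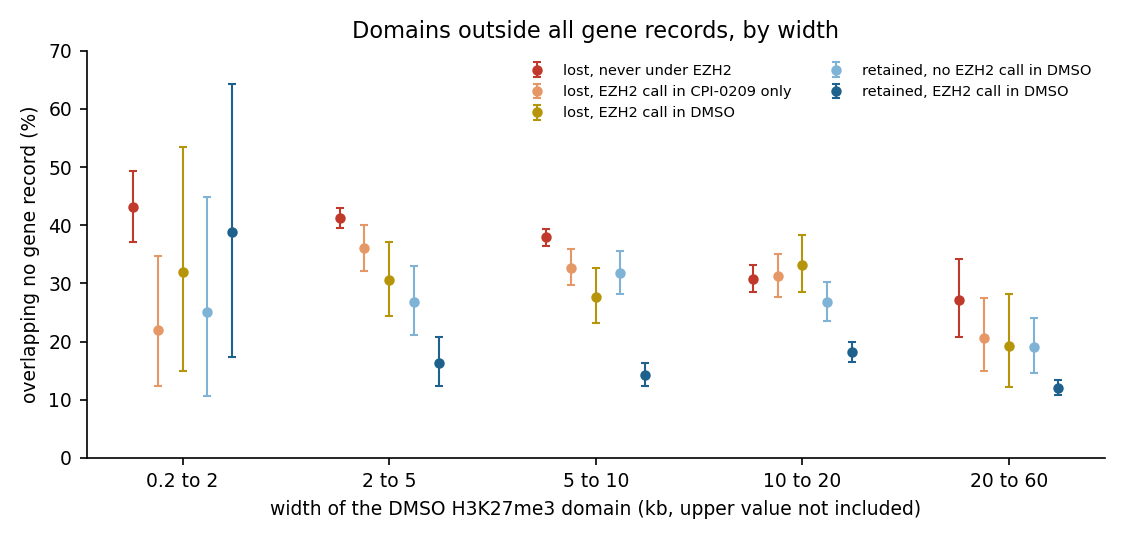
Percent of DMSO H3K27me3 domains that overlap no gene record (y axis), by width in kb (x axis) and by class, with exact 95% binomial intervals that cover counting error only. From 2 kb upward the lost, EZH2-free domains (red) lie above the domains retained with EZH2 (dark blue), at 41.2% against 16.2% for 2 to 5 kb.

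By length the difference was much smaller. Of the base pairs in lost, EZH2-free domains, 45.9% lay outside gene records and 39.0% inside protein-coding ones. For the genome between the outermost genes of each chromosome these values were 44.8% and 41.6%, and for domains retained with EZH2 they were 41.2% and 46.6%. The lost, EZH2-free domains thus sampled genes and gaps close to the proportions of the genome, and the classes differed more in whether a domain reached a gene than in how much of its length did.

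Gene types met the lost, EZH2-free domains unequally. Of 19974 protein-coding records, 1937 (9.7%) touched such a domain, and 83 lay wholly inside. Touched protein-coding records were long, with a median of 82.7 kb against 24.2 kb for all of them. Long noncoding RNA records were touched in 1509 of 18177 cases (8.30%) and pseudogenes in 802 of 16462 (4.87%), 490 of them whole. Short RNA genes were read against the length of the classes, since lost, EZH2-free domains made up 2.15% of the genome between outermost genes and domains retained with EZH2 4.30%. Of 1911 microRNA records, 24 (1.26%, 0.806 to 1.86) touched a lost, EZH2-free domain and 197 (10.3%) one retained with EZH2. Transfer RNA genes did so in 2 and 75 of 443 cases, small nucleolar RNA genes in 22 and 40 of 1196, and small nuclear RNA genes in 6 and 6 of 154. Segments of immunoglobulin and T-cell receptor genes went the other way, with 66 of 601 (10.98%, 8.60 to 13.8) on lost, EZH2-free domains and 35 (5.82%) on domains retained with EZH2. Such segments sit in a few dense clusters, so their counts are not independent.

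Gene families, chosen with earlier results of these data known, were read against the 9.7% of protein-coding records that touched a lost, EZH2-free domain and the 1.92% of genes with a promoter window in one. A long gene is touched more easily, whereas a window has the same length for every gene. For domains retained with EZH2, 2124 of the 15812 genes with a window (13.4%) had one inside. Family counts in that class are to be set beside this share. No theme over the families was tested, and genes of a family often lie in clusters, so the intervals are too narrow as a guide to how families differ. Interferons, the secreted antiviral cytokines, touched such a domain in 5 of 21 cases (23.8%, 8.22 to 47.2), an interval that includes 9.7%. These 5 were all the interferon genes that touched any DMSO domain. IFNA5 and the interferon lambda genes IFNL3 and IFNL1 lay whole inside domains of 9.2, 6.6 and 6.2 kb, and IFNL2 lay 77.4% inside one of 2.8 kb. IFNG lay only 6.84% inside a domain of 1.6 kb. The IFNA5 domain was 20.2 kb from EZH2 in DMSO, whereas the 3 lambda genes were 0.8 to 2.8 kb from it. Of 18 interferon genes with a window, 4 had it in a lost, EZH2-free domain and 0 in a domain retained with EZH2.

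Immune receptors of the immunoglobulin-like families were touched in 14 of 59 cases (23.7%, 13.6 to 36.6), an interval above 9.7%. A window lay inside for 6 of 47 (12.8%, beside 1.92% of all genes). In domains retained with EZH2 it did for 8 (17.0%, beside 13.4%). FCRL6, an Fc receptor-like protein of lymphocytes, was 89.5% inside a 14.6 kb domain, and CEACAM3, a granulocyte receptor for bacteria, was 83.9% inside one of 13.4 kb. Killer and C-type lectin receptors, which natural killer and myeloid cells use to sense targets, were touched in 14 of 55 cases (25.5%, 14.7 to 39.0), also above it, with CLEC17A 57.4% inside. Of their 34 genes with a window, 2 (5.88%, beside 1.92% of all genes) had it in a lost, EZH2-free domain. In domains retained with EZH2, 5 (14.7%) had it. Chemokine ligands were touched in 8 of 48 cases (16.7%, 7.48 to 30.2) and interleukins with their receptors in 13 of 84 (15.5%, 8.51 to 25.01), intervals that include 9.7%. Of 33 chemokine genes with a window, 3 (9.09%) had it inside, and 4 (12.1%) had it in domains retained with EZH2. For interleukins and their receptors these were 2 (2.94%) and 18 (26.5%) of 68.

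Families of testis, skin and sensory genes gave small counts. Cancer-testis antigens, X-linked genes normally silent outside germ cells, were touched in 8 of 81 cases, close to the 9.7% of all genes. Of 56 with a window, 4 (7.14%, beside 1.92% of all genes) had it inside and 0 in a domain retained with EZH2. XAGE5 was 72.9% inside a 7 kb domain that lay 103.8 kb from any EZH2 domain. Defensins, antimicrobial peptides, were touched in 6 of 45 cases, and DEFB128 was whole in a domain of 11.8 kb. Of 18 defensin genes with a window, 2 (11.1%) had it inside and 1 (5.56%) in a domain retained with EZH2. Keratins were touched in 3 of 55 cases, with KRT6B and KRT6C, keratins of stressed epithelium, whole in domains of 11 and 8.8 kb. Of the epidermal differentiation genes 6 of 58 were touched, among them S100A7, whole in a domain of 12.2 kb, and keratin-associated proteins, the matrix of hair, were touched in 1 of 94. Olfactory receptors were touched in 23 of 390 cases (5.90%, 3.77 to 8.72), an interval below 9.7%, and 13 of these 23 lay whole inside. Their median record was 2.985 kb, against 24.2 kb for all protein-coding genes. A window lay inside for 15 of 312 (4.81%, beside 1.92% of all genes). In domains retained with EZH2 it did for 6 (1.92%, beside 13.4% of all genes). OR4D9 was whole in a 24.4 kb domain and OR2K2 in one of 16.6 kb, the latter 140.6 kb from the nearest EZH2 domain.

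Developmental regulators had touched shares below 9.7%, while the share with a window inside was near 1.92% for the families other than HOX. Of 39 HOX genes, which pattern the body axis, all 39 touched a DMSO H3K27me3 domain and 0 touched a lost, EZH2-free one. Only 6 touched a domain under 60 kb that was retained with EZH2. Domains of 60 kb or more lie outside the classes compared, so the 0 may reflect domain width, which was not tested. Other developmental factor families were touched in 7 of 160 cases (4.38%, 1.78 to 8.81), and 2 of 115 genes with a window (1.74%) had one inside, against 53 in domains retained with EZH2. The 2 were GATA1, the erythroid factor, 46.8% of whose record lay in a domain of 5.2 kb, and TBX19, a pituitary factor, 8.72% of whose record lay in one of 6 kb. PAX5, a B-cell factor, and POU3F3, a neural factor, were touched over 4.98% and 10.7% of their records, with no window inside. The PAX5 domain met an EZH2 domain of CPI-0209 end to end, without overlap. Protocadherins, neuronal adhesion proteins, were touched in 19 of 65 cases (29.2%), and 1 of 57 had a window inside against 20 in domains retained with EZH2. All the touched protocadherin records except that of PCDH20 share their far end, and the same 7.6 kb domain touched each of them. The 19 are thus not separate cases, and their share was not read against 9.7%. The median protocadherin record was 105 kb. Potassium channels were touched in 17 of 95 cases (17.9%, 10.8 to 27.1), an interval above 9.7%. Of 71 genes with a window, 3 (4.23%) had one inside, against 31 in domains retained with EZH2. Their median record was 40.5 kb, and that of the receptors for GABA and glutamate was 147 kb, against 24.2 kb for all protein-coding genes.

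Of the remaining families, solute carriers and the receptors for GABA and glutamate had intervals above 9.7%. Solute carriers were touched in 51 of 390 cases (13.1%, 9.89 to 16.8), with a lower limit close to 9.7%. Their median record was 37.6 kb, against 24.2 kb for all protein-coding genes. A window lay inside for 11 of 302 (3.64%), against 51 (16.9%) in domains retained with EZH2. SLC36A2, an amino acid transporter, was 82.7% inside a 34.8 kb domain. Cytochrome P450 enzymes were touched in 8 of 55 cases with a window inside for 0 of 39 genes, serpins in 4 of 34 cases with 1 of 27, and receptors for GABA and glutamate in 11 of 45 (24.4%, 12.9 to 39.5) with 2 of 32 (6.25%). Taste and vomeronasal receptors were touched in 3 of 31 cases. Zinc finger genes were touched in 26 of 556 cases (4.68%, 3.08 to 6.78), below 9.7%, with a window inside for 2 of 469. UDP-glucuronosyltransferases (21 genes) and ribosomal protein genes (80), the latter active in every cell, touched 0 such domains.

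Of the 83 protein-coding genes that lay wholly inside a lost, EZH2-free domain, most were short, with a median record of 1.88 kb, and they sat in 82 domains. CSNK2A3, a casein kinase subunit gene, lay in the widest of these domains, 28.6 kb, followed by SOSTDC1, a secreted antagonist of BMP and Wnt signalling, in one of 26.6 kb. EQTN, a protein of the sperm acrosome (21.6 kb), PRPS1L1, a testis form of a nucleotide synthesis enzyme (18.2 kb), and SPATA31F1, of a spermatogenesis gene family (14.8 kb), have names or known roles in the germ line. CST5, a cysteine protease inhibitor of saliva (19.6 kb), CILP, a cartilage matrix protein (17.4 kb), NAT8, a kidney acetyltransferase (16 kb), and RTP3, a receptor transporter protein of liver (16 kb), were also among them. The rest were OR4D9, OR2K2, BOD1L2, CARTPT (14.8 kb) and the ribonucleases RNASE6 and RNASE3. Among the 15, the domain of CST5 was farthest from EZH2 in DMSO, at 234.4 kb, though an EZH2 domain in CPI-0209 lay 30.4 kb away, and that of BOD1L2 was nearest to EZH2 in DMSO, at 17.2 kb. Of the 14 with a promoter window inside the domain, CARTPT alone had 15 CpG or more.

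The ribonuclease A cluster on chromosome 14 showed the pattern over neighbouring genes, a set chosen after its values were seen. Its products are secreted enzymes that cut RNA, several of them antimicrobial. Of 12 RNASE genes in the cluster 8 touched a lost, EZH2-free domain, and these 8 were all that touched any DMSO domain. RNASE12, RNASE6, RNASE1, RNASE3 and RNASE2 lay whole inside one. RNASE6 (chr14:20781070-20782467) sat in a domain of 19.8 kb whose nearest EZH2 domain in DMSO was 46.8 kb away, and RNASE3 (chr14:20891385-20892348) in one of 16.4 kb at 145.6 kb. RNASE4, RNASE13, RNASE7 and RNASE8 lay outside all DMSO domains.

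Over 240 kb around RNASE6 and RNASE3, 11 DMSO H3K27me3 domains covered 100.3 kb, and 10 of them were lost and EZH2-free. The remaining one held the region's only EZH2 domains (5.4 kb in DMSO, 6.8 kb in CPI-0209) and its only H3K27me3 in CPI-0209 (4.2 kb). Over 240 kb around the PAX3 domain, 6 DMSO domains covered 58.9 kb. A domain of 40.2 kb over the start carried EZH2 in both conditions and kept H3K27me3, while 4 short domains further inside the PAX3 record were lost and EZH2-free. Both kinds of domain could thus lie within the same gene.

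**Figure D4:**
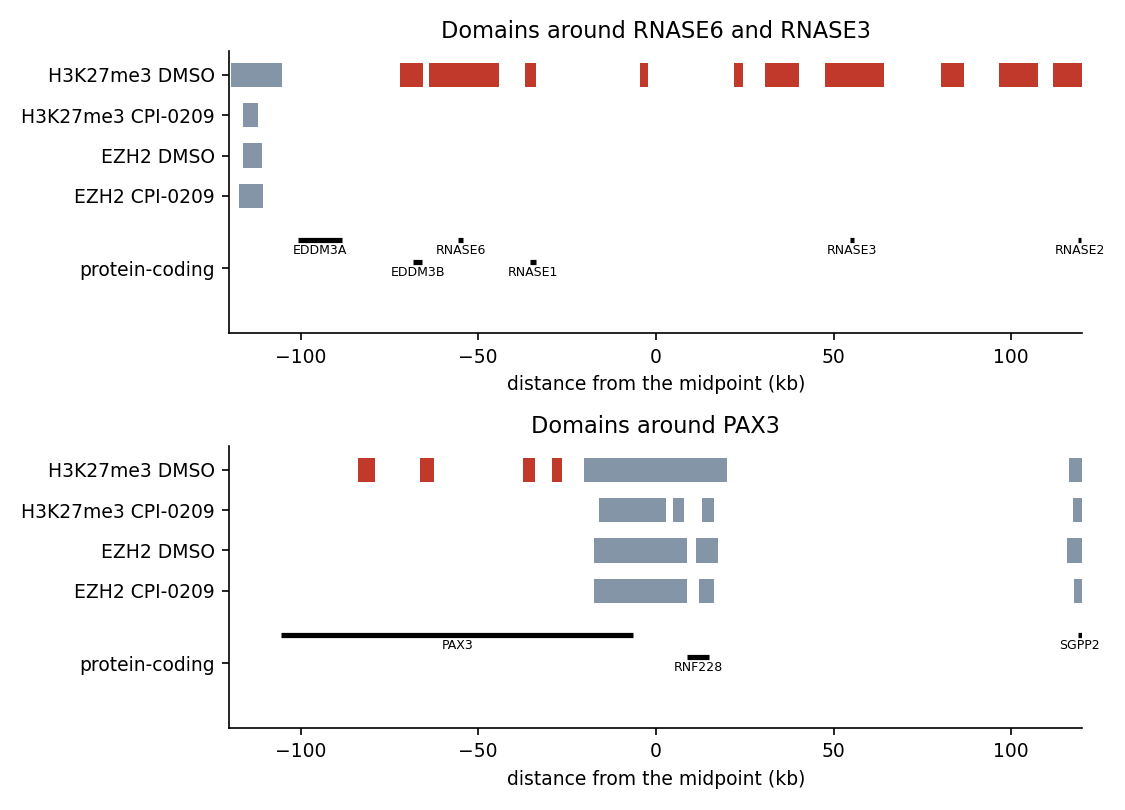
Merged domains of the 4 lists (rows) over 240 kb around RNASE6 and RNASE3 (top) and around PAX3 (bottom), with protein-coding gene records in black and distance from the midpoint in kb on the x axis. Red marks lost, EZH2-free H3K27me3 domains, 10 of 11 in the upper panel and 4 of 6 in the lower, and grey marks all other domains.

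Lost, EZH2-free domains tended to neighbour one another. Of the DMSO domains next to one, 54.9% were also lost and EZH2-free, beside 43.1% of all DMSO domains and 31.3% of those next to a domain retained with EZH2. They formed 4209 runs of consecutive domains, of which 2112 were a domain on its own and 398 held 5 or more. The longer runs held 2728 domains (29.3%). The longest had 21 in a row over 1.53 Mb at chr13:38967001-40494200, where STOML3, a stomatin-like protein of sensory neurons, was among 2 protein-coding genes touched.

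The 1 Mb windows with most lost, EZH2-free domains were of different kinds. On the X chromosome, 28 of 37 DMSO domains between 48 and 49 Mb were of this kind, touching among others the cancer-testis genes SSX5 and SSX3, WAS, a regulator of actin in blood cells, and GATA1. On chromosome 22, 26 of 34 between 22 and 23 Mb were, and 11 of these touched immune-receptor segments, in the immunoglobulin lambda region, with ZNF280B and ZNF280A beside them. On chromosome 15, 25 of 39 between 62 and 63 Mb were, and 17 of them lay on TLN2, an adaptor between integrins and actin. Long genes such as TLN2 carried many at once. RORA, a nuclear receptor, was touched by 19 of them among its 25 DMSO domains, PRKCA, a protein kinase C, by 18 of 26, and ZFHX3, a homeobox factor, by 17 of 32. These 4 genes were picked after their counts were seen, and their records span 454 to 1109 kb.

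All 23 chromosomes with calls held lost, EZH2-free domains, and the X chromosome had the highest share. On X, 358 of 632 DMSO domains (56.6%, 52.7 to 60.5) were of this kind, against 42.7% (42.0 to 43.3) on the autosomes. The lowest shares were on chromosomes 20 (29.6%, 26.2 to 33.3), 19 (33.4%, 30.3 to 36.7) and 22 (33.5%, 29.6 to 37.6), and their intervals overlapped. The highest autosomes were 18 (48.6%) and 15 (48.1%), whose intervals also overlapped. Domains retained with EZH2 were 19.3% of the X domains and 29.7% of the autosomal ones.

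Domain width moved with the X value. The lost, EZH2-free domains on X had a median of 4.4 kb against 6 kb on autosomes, and within bins of width X and the autosomes were close. At 2 to 5 kb, 74.6% (68.8 to 79.9) of X domains and 70.7% (69.4 to 72.1) of autosomal ones were lost and EZH2-free. At 5 to 10 kb the shares were 55.4% and 56.2%, and at 10 to 20 kb 22.99% (14.6 to 33.2) and 29.3%. At 20 to 60 kb, 0 of 25 X domains were of this kind, which allows a share of up to 13.7%, against 5.34% on autosomes. On X, 48.3% (43.0 to 53.6) of lost, EZH2-free domains met no gene record, beside 37.4% on autosomes. This contrast was not taken within bins of width. In every other class the share was lower on X than on autosomes, though on 28 to 122 X domains per class. For domains retained with EZH2 it was 9.02% (4.59 to 15.6) on X and 14.9% on autosomes.

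Across chromosomes, the share of DMSO domains that were lost and EZH2-free was lower where protein-coding genes were denser. Pearson's r was −0.60 and Spearman's rho −0.73 over 23 chromosomes, and −0.65 and −0.75 over the 22 autosomes. All points come from the same 4 libraries and differ in size and base composition, so this is a description. Chromosome 19, with 24.8 protein-coding records per Mb, stood at 33.4%, and chromosome 13, with 2.96 per Mb, at 46.0%.

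**Figure D5:**
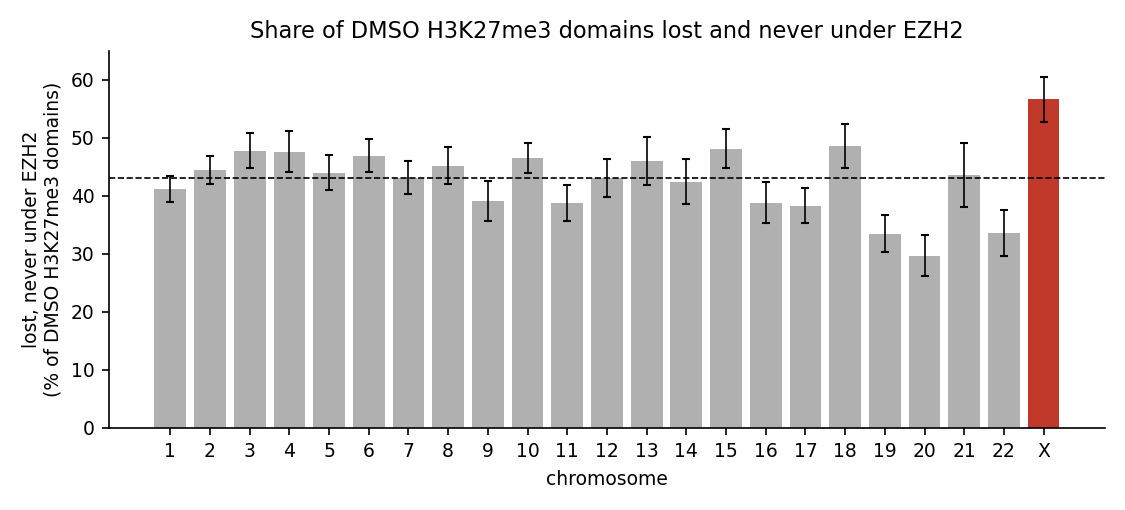
Percent of DMSO H3K27me3 domains on each chromosome that were lost and EZH2-free (bars from 0, y axis), with exact 95% binomial intervals that cover counting error only; the dashed line is the genome-wide 43.1%. The X chromosome (red) stands at 56.6% and chromosome 20 at 29.6%.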

How the data were processed

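ChIP-seq of HT1376 cells against EZH2 and H3K27me3, in DMSO or CPI-0209, gave 4 libraries, 1 per group. The submitters' processing notes name BWA, SICER and the build hg38; versions, settings and the role of the input are not given in the sources used here. Per the file headers, the deposited interval lists give chromosome, start and end and no score, count or depth, so precision rests on the number of domains. The labels' protocols further mention a treatment of 4 days and an H3K27 acetylation antibody, not analysed here.

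Overlapping rows were merged within each list with Python 3.11.15 and numpy 2.4.6. Starts and widths are multiples of 200 bp, starts count from 0, and printed coordinates count from 1. Overlap means at least 1 bp. Genes were 59098 RefSeq records on GRCh38.p14, the assembly of hg38. Exons and introns were not told apart. A promoter window counted only when wholly inside a domain. The class assignment was tested on simulated domains.

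The rule, the 24 gene families and the tests were chosen with earlier results of these data known. Genes were named mostly by rule: the 15 protein-coding genes whole in the widest domains, the first 4 of each family by domain width, the 5 widest domains, the genes of the 3 fullest windows of 1 Mb, and the 3 promoters with the fewest and most CpG. Not every family member so chosen is named. The other ribonuclease genes, RORA, PRKCA, ZFHX3, STOML3, IFNG, PCDH20, GATA1 as a developmental factor and PAX3 were chosen after their values were seen. Alternatives changed the merging, the widths, the overlap allowed, the gene records and the CpG minimum.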

Additional observations from a re-analysis of the deposited data

How the results depend on the processing

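Of 88 values recomputed under the alternatives, 65 stayed within their limits and 23 moved. A reversal was not tested. Dropping the upper width could change no value, because 0 domains of 60 kb or more met the other terms. Its values are among the 65 and are no check. The limits for counts were wide: the 13700 found with unmerged rows counted as within them, beside 9320 as reported. Joining domains under 5 kb apart in all 4 lists left 5779 domains with a median width of 6.4 kb, 36.4% outside gene records, 19.9% of length doubly covered and a median of 51.8 kb to EZH2 in DMSO. Requiring 10 kb of clearance left 6122, with 36.8% outside genes, 20.7% doubly covered and 56.6 kb to EZH2. A lower width of 4 kb gave a median of 7 kb, 36.7% outside genes, 41.8% on protein-coding records, 3.07% on the X chromosome (3.84% as reported) and 24.1% doubly covered. An upper width of 20 kb gave 21.2% doubly covered. Unmerged rows gave a median of 5.2 kb, 38.8% outside genes and 32.8 kb to EZH2. Gene records widened by 2 kb left 34.2% outside genes and 42.5% on protein-coding records. Counting protein-coding records alone put 59.4% outside, the choice that moved this share most. With a minimum of 10 CpG, 15.9% of promoter windows passed (75.1% in domains retained with EZH2), and with 20, 3.69% (53.4%).

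The CpG minimum, the joining of rows that touch, the use of 1 window per gene or domain, and the effect of membership on CpG, distance and genes touched were added after the data were seen. No paired analysis was possible because each group had 1 library, and no library was left out for the same reason. Unknown depth limits every statement that a domain was absent from a list, and CpG shares by width rest on few windows above 20 kb.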
